A study of Mus musculus with 74 samples.

Results

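Keratins are the intermediate filament proteins of epithelial cells. All gene symbols made of Krt, a number and at most 1 lower-case letter were taken as members, which leaves out the keratin-associated proteins (Krtap). The 6 deposited count tables list 17853 gene symbols in all, and 47 of them are keratins. Of the 14637 symbols that all 6 tables list, 42 are keratins. By the tissue each is known from, they fall into 6 simple-epithelial keratins, 3 basal keratins of stratified epithelia, 4 keratins induced by wounding or found in skin appendages, 12 suprabasal keratins, 13 hair shaft keratins, 7 keratins of the inner root sheath of the hair follicle, and 2 others (Krt42 and Krt222).

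A keratin filament is built from pairs of 1 type I (acidic) and 1 type II (basic) chain, and each epithelium is known by its pairs. Krt8 pairs with Krt18 in simple epithelia, Krt5 with Krt14 in the basal layer of skin, Krt1 with Krt10 in the layers above it and Krt4 with Krt13 in the upper layers of oesophagus and mouth. Medullary thymic epithelial cells carry keratins of their own as structural proteins. They also transcribe many genes of other tissues, so that developing T cells meet those antigens in the thymus, and the transcriptional regulator AIRE drives a large share of that transcription.

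The libraries are 3' end RNA-seq (bulk MARS-seq) of sorted mature medullary thymic epithelial cells, mTEChi, from mice 4 to 7 weeks old, and the study asked how dominant AIRE mutations act. On C57BL/6 the groups were Aire-/- (4 libraries), Aire+/- (5) and wild type (3); Y86C/Y86C (3), +/Y86C (3) and wild type (3); C442G/C442G (6), +/C442G (5) and wild type (3); and C313X/C313X (3), +/C313X (2) and wild type (3). On NOD they were V303M/V303M (3), +/V303M (3) and wild type (3). A further NOD table held +/C313Y (4) with 5 wild types, -/C313Y, which has 1 null and 1 C313Y allele (3) with 3 wild types, and Aire-/- (3) with Aire+/- (3). The NOD Aire-/- libraries were therefore compared with mice that carry 1 null allele. Y86C lies in the CARD domain of AIRE, V303M and C313Y in its first PHD finger and C442G in its second, and X is the usual symbol for a stop codon. That gives 73 libraries in 21 groups, 23 of them wild type. The remaining library, titled wild type but labelled Aire-/- by genotype, entered no comparison. The labels do not say whether a library is 1 mouse or a pool, so p-values measure the spread between these libraries, which may be partly technical.

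Library totals ran from 1016619 to 7225403 counts. Levels are given as CPM, a library's counts of a gene scaled to a common total of gene counts. Because each transcript is counted at its 3' end, CPM was not divided by gene length. Each comparison was fitted by edgeR's quasi-likelihood test within its own table, and a keratin is called higher or lower where its Benjamini-Hochberg adjusted p, over all genes tested in the table, is below 0.05. Log2 changes are mutant over control, with TMM-scaled libraries, which added between 0.10 and 0.25 to the log2 change of each comparison that had more than 1 called keratin. No called keratin had the other sign in its plain mean CPM. The mTEC markers Epcam, H2-Aa, Cd74, Cd80, Aire and Fezf2 were detected in every table, and their summed level ran from 23980 to 53140 CPM over the libraries compared. The Aire transcript itself was higher in Aire-/- than in wild type on C57BL/6, 3162 ± 364 CPM against 2125 ± 79.4 CPM (SD, n = 4 and 3; log2 change 0.68, adjusted p = 0.00193), so a 3' tag does not check the knockout allele. In bulk samples, fewer cells of a type and less RNA per cell cannot be told apart.

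In wild-type mTEChi a few keratins made up nearly all keratin RNA. Over the 23 wild-type libraries, the wound-induced type I keratin Krt17 had the highest mean, 5034 ± 1690 CPM (SD, n = 23). Krt18 followed with 1557 CPM, Krt5 with 1287 CPM, Krt8 with 1174 CPM, Krt14 with 958 CPM and Krt7 with 604 CPM. Krt10 (169 CPM), Krt19 (120.1 CPM) and Krt16 (113 CPM) came next. Their ranges over the libraries overlapped between neighbours in this order: Krt18 ran from 768 to 2593 CPM and Krt5 from 321 to 3343 CPM. The keratins known from single tissues lay far lower, with 40.9 CPM for Krt71, 35.9 CPM for Krt4 and 18.5 CPM for Krt13. The lowest was Krt39, with 0.709 CPM over the 6 wild-type libraries of the 2 tables that list it. The order differed between strains: in all 4 C57BL/6 tables the wild-type mean of Krt18 was above that of Krt5 and Krt8 above Krt14, and in the 3 NOD wild-type groups both pairs stood the other way. In the wild types of -/C313Y, for one, Krt5 averaged 2519 ± 373 CPM and Krt18 1260 ± 114 CPM (SD, n = 3), while in those of C313X/C313X Krt5 averaged 615 ± 209 CPM and Krt18 2539 ± 86.7 CPM (SD, n = 3).

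Most keratins were lower in the 4 C57BL/6 homozygotes. In Aire-/- mTEChi, 29 of 34 tested keratins were called, 3 higher and 26 lower; of all genes tested there, 36.6% were called, 17.7% higher and 18.9% lower. In Y86C/Y86C, 36 of 37 were called, 3 higher and 33 lower, against 49.6% of all genes, 21.7% higher and 27.9% lower. In C442G/C442G, 32 of 37 were called, 1 higher and 31 lower, against 42.6% of all genes, 19.5% higher and 23.1% lower. In C313X/C313X, 32 of 43 were called, 1 higher and 31 lower, against 23.1% of all genes, 7.82% higher and 15.2% lower. More keratins of low count passed the filter there than in the other lines. The median keratin log2 change was -1.13, -1.87, -1.80 and -1.85 in those 4 comparisons, in the order given. The median of all genes lay between -0.03 and 0.01 in all 13 comparisons, since TMM scaling centres most genes near 0. The keratin medians are the same with each keratin that had no count in the mutants set at its lower bound.

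On NOD the count of lower keratins was smaller. In +/C313Y, 17 of 37 tested keratins were called, 2 higher and 15 lower, against 17.4% of all genes, 6.37% higher and 11% lower. In -/C313Y, 22 of 37 were called, 2 higher and 20 lower, against 22.7% of all genes, 9.83% higher and 12.9% lower. In NOD Aire-/- against Aire+/-, 17 of 37 were called, 1 higher and 16 lower, against 13.3% of all genes, 4.22% higher and 9.11% lower. Median keratin log2 changes were -0.76 in +/C313Y, -0.93 in -/C313Y and -1.10 in NOD Aire-/-.

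The count of called keratins differed between the heterozygotes. The +/C313X group held only 2 libraries, so smaller changes could be missed there. Neither +/C313X nor +/V303M was tested against +/C442G. In +/C442G, 29 of 37 tested keratins were called against wild type, 1 higher and 28 lower, with a background of 26.5% of all genes, 13.1% higher and 13.4% lower. In +/Y86C, 1 of 37 was called, higher, against 3.37% of all genes, 2.33% higher and 1.04% lower. None of 34 was called in Aire+/- on C57BL/6 (0.48% of all genes), none of 43 in +/C313X (0% of all genes) and none of 38 in +/V303M (0% of all genes). DESeq2 also called 0 keratins in these 3 comparisons, and at an unadjusted p below 0.05 edgeR's test gave 7, 2 and 1 keratins. In V303M/V303M, 1 of 38 was called, lower, against 0.0657% of all genes, 0.0146% higher and 0.0511% lower, and 10 keratins had an unadjusted p below 0.05.

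**Figure D1:**
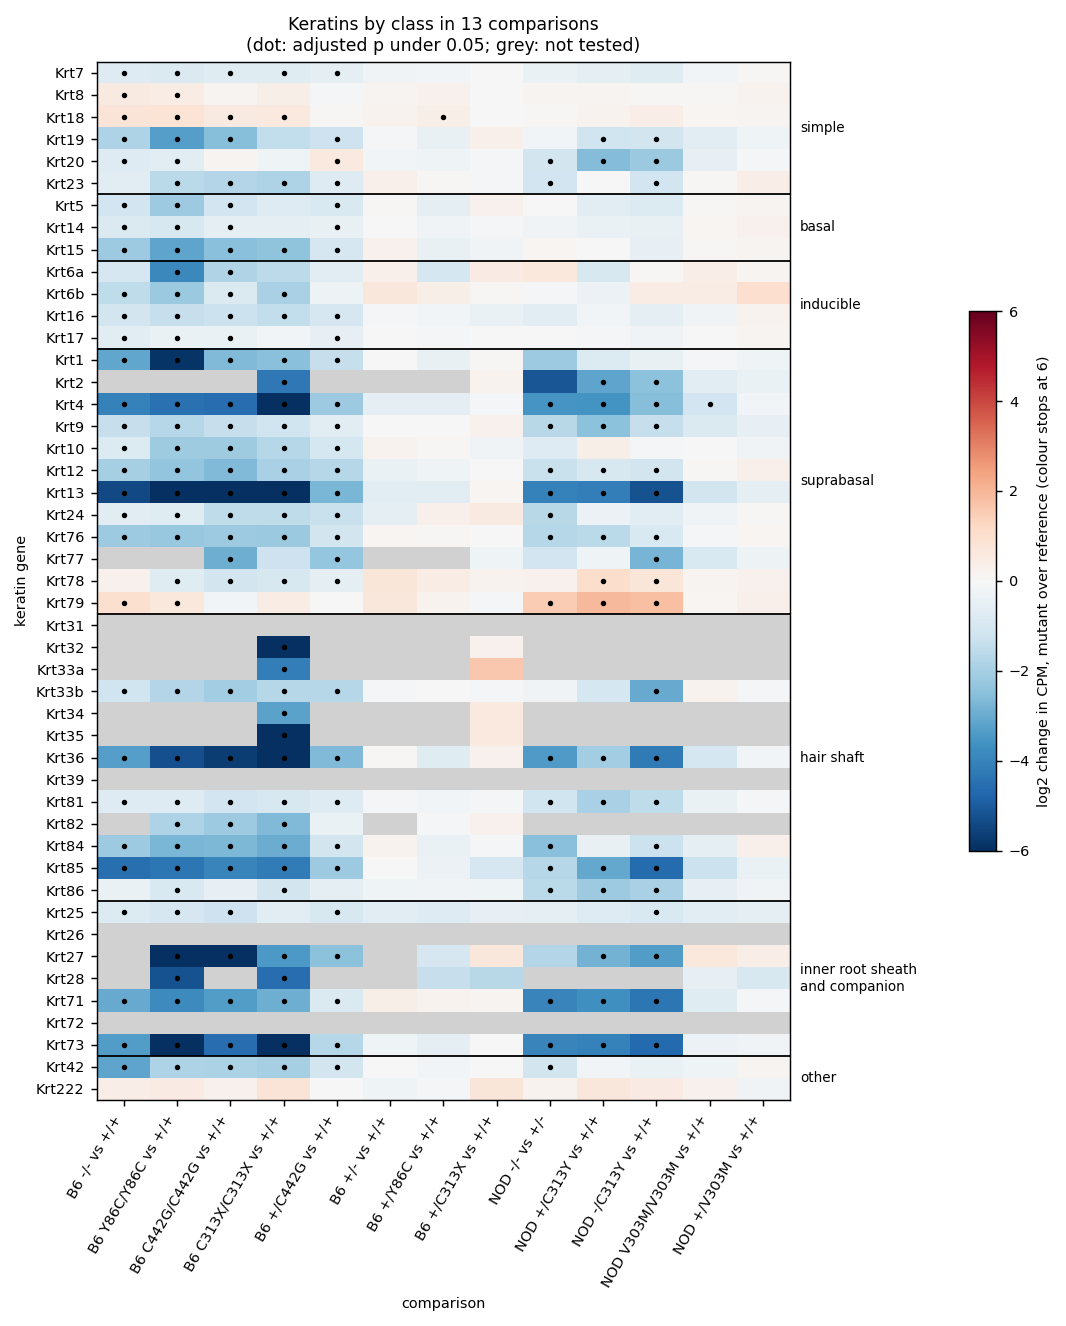
Log2 change (mutant over control) of 47 keratins, in rows by class, in the 13 comparisons, in columns. A dot marks an adjusted p below 0.05 and grey a keratin not tested. The columns for the C57BL/6 homozygotes and +/C442G are mostly blue (lower), with Krt18 red (higher) in all 4 homozygotes, while those for Aire+/-, +/C313X and +/V303M hold no dot.

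A core of the family was lower in the 4 C57BL/6 homozygotes and in +/C313Y, -/C313Y and NOD Aire-/-. Lower in all 4 C57BL/6 homozygous comparisons, each with wild-type libraries of its own, were 20 of the 34 keratins tested in all 4, against 1086 of 12075 genes (8.99%). Lower in all 3 NOD comparisons with more than 1 called keratin (+/C313Y, -/C313Y and Aire-/-) were 12 of 37 keratins, against 908 of 13827 genes (6.57%). Over all 7 comparisons 10 of 34 keratins were lower, against 577 of 11932 genes (4.84%). These 10, singled out after their values were seen, are the suprabasal Krt4, Krt9, Krt12, Krt13 and Krt76, the hair shaft Krt36, Krt81 and Krt85, and the inner root sheath Krt71 and Krt73. V303M/V303M was not among the 7 comparisons, and of the 10 keratins only Krt4 was called there. Krt18 was the 1 keratin higher in all 4 C57BL/6 homozygotes, and Krt79 the 1 keratin higher in all 3 of those NOD comparisons.

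Promoter windows of members that moved in opposite directions are shown, since the family sits in dense clusters where neighbours can differ. Each is the 250 bases before the RefSeq transcription start on GRCm38.p6, read 5' to 3' on the gene's strand, with the TATA-box letters TATAAA in capitals where they occur. The first 5 belong to keratins that were lower in all 7 comparisons named above, and the last 3 to the keratins called higher in at least 2 C57BL/6 homozygotes.
Krt12, chr11:99422260-99422509, minus strand: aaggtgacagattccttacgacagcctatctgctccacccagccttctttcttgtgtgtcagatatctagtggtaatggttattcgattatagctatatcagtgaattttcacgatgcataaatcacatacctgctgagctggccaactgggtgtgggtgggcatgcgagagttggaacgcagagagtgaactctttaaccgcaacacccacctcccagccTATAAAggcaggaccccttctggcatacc
Krt71, chr15:101743098-101743347, minus strand: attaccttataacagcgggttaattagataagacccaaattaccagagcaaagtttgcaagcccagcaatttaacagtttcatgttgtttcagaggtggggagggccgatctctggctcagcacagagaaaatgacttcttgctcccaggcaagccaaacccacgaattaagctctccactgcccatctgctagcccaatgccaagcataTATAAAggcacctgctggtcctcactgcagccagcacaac
Krt73, chr15:101802361-101802610, minus strand: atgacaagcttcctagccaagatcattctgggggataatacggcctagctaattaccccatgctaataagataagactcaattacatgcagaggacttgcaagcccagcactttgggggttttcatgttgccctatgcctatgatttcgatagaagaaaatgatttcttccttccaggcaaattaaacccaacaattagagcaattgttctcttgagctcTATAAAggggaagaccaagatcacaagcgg
Krt76, chr15:101892921-101893170, minus strand: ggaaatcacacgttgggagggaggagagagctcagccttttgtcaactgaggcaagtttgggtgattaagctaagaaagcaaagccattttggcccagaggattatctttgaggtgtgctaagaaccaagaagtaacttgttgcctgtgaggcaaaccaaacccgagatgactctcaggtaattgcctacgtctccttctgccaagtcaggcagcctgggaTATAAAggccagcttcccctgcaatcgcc
Krt13, chr11:100121567-100121816, minus strand: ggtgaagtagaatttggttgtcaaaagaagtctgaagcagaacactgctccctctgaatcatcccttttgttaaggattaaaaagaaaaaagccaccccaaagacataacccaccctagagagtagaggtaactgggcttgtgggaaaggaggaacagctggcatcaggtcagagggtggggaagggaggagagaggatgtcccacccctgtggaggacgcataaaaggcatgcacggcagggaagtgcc
Krt79, chr15:101940325-101940574, minus strand: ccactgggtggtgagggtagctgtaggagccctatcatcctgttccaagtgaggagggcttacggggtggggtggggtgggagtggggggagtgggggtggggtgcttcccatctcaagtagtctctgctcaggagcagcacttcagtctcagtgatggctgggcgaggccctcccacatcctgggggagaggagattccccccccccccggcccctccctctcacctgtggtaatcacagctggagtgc
Krt8, chr15:102004343-102004592, minus strand: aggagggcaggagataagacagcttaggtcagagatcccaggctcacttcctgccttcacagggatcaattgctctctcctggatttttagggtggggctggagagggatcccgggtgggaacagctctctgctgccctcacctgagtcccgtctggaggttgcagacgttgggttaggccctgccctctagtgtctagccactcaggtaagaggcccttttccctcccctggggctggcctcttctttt
Krt18, chr15:102027966-102028215, plus strand: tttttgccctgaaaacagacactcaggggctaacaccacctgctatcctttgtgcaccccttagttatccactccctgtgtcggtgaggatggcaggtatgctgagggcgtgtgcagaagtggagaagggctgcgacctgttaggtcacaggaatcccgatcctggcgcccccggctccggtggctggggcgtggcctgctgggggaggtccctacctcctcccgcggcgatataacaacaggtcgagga

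TATAAA on the gene's strand was in 14 of the 34 windows found for 33 keratins (41.2%), against 2494 of 32851 windows of the same length over all RefSeq starts (7.59%). Its first base lay 29 bases before the start in Krt12 and in Krt76, 30 in Krt73 and 40 in Krt71. The letters are not in the windows shown for Krt13, Krt79, Krt8 and Krt18, nor in those of Krt9 and Krt36, which were also lower in all 7 comparisons and are not shown. So 4 of the 7 keratins of that set with a window held them. The GC-box letters GGGCGG, searched on both strands, were in 1 of the 34 windows (2.94%), that of Krt7, against 32.7% of all windows. TGANTCA, the AP-1 letters, searched on both strands, was in 2 windows (5.88%), both of Krt13, against 6.75% of all. CCAAT, on both strands, was in 14 (41.2%) against 33.8%. A match is a run of letters and no more, and no match says only that the letters are not in that window.

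Krt13 and Krt4, the suprabasal pair of mouth and oesophagus, were lower in all 7 of those comparisons. Krt13, the type I partner of Krt4, had 1.13, 0, 0 and 1.11 CPM in Aire-/-, against 35.7, 28.98 and 30.9 CPM in wild type on C57BL/6 (log2 change -5.41, SE 0.49, adjusted p = 7.83e-08). The groups did not overlap. In C442G/C442G it had 0 (lowest), 0 (median) and 0.842 (highest) CPM, against 30.8, 36.9 and 19.4 CPM in wild type (log2 change -6.50, SE 0.49, adjusted p = 9.99e-11). No count of Krt13 was found in Y86C/Y86C, against 18.5, 16.6 and 14.3 CPM in wild type, at least 49.6-fold lower when the empty group is set at 3 counts. C313X/C313X had none either, against 20.2, 25.2 and 14.6 CPM in wild type, at least 66.6-fold lower. These floors and bounds cover counting error only.

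On NOD the wild-type level of Krt13 differed between groups and the mutants were again near 0. It had 0, 0.380, 0 and 0.401 CPM in +/C313Y, against 3.06, 4, 6.41, 2.91 and 6.78 CPM in wild type (log2 change -4.16, SE 0.78, adjusted p = 0.000255). In -/C313Y it had 0.840, 0.274 and 0 CPM, against 8.88, 24.9 and 19.6 CPM in wild type (log2 change -5.23, SE 0.66, adjusted p = 1.18e-06). NOD Aire-/- had 0.434, 0 and 0 CPM, against 2.64, 1.51 and 6.23 CPM in Aire+/- (log2 change -4.04, SE 1.05, adjusted p = 0.00793). Every mutant library lay below every control library in each of these 3 comparisons.

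Krt4, the type II partner of Krt13, fell with it. It had 1.13, 3.21, 3.08 and 0.8291 CPM in Aire-/-, against 35.4, 33.7 and 33.5 CPM in wild type on C57BL/6 (log2 change -4.04, SE 0.30, adjusted p = 1.22e-11). In C313X/C313X it had 0.540, 0.319 and 0.317 CPM, against 34.02, 43.3 and 33.2 CPM in wild type (log2 change -6.19, SE 0.44, adjusted p = 6.47e-06). Its log2 change was -4.48 in Y86C/Y86C and -4.58 in C442G/C442G. On NOD, +/C313Y had 3.58, 3.42, 3.65 and 1.20 CPM, against 26.2, 36.3, 52.8, 35.9 and 40.04 CPM in wild type (log2 change -3.56, SE 0.36, adjusted p = 6.7e-08). -/C313Y had 3.64, 4.93 and 6.76 CPM, against 33.5, 40.2 and 24.03 CPM in wild type (log2 change -2.54, SE 0.38, adjusted p = 1.97e-05). NOD Aire-/- had 1.30, 0 and 5.21 CPM, against 23.8, 27.3 and 20.3 CPM in Aire+/- (log2 change -3.56, SE 0.51, adjusted p = 2.25e-05). Groups did not overlap in any of these comparisons.

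Krt4 was also the 1 keratin called in V303M/V303M. It had 22.4, 19.9 and 14.2 CPM in V303M/V303M and 38.9, 36.4 and 36.1 CPM in +/V303M, against 42.8, 46.6 and 39.9 CPM in wild type; the homozygote differed with log2 change -1.16, SE 0.18, adjusted p = 0.0165. The heterozygous and homozygous ranges did not overlap with wild type. The homozygote's call was lost with only the compared groups in the fit (adjusted p = 0.0655) and without wild-type replicate 47, 49 or 51 or homozygote replicate 53 (adjusted p between 0.0789 and 0.216), while the log2 change stayed between -1.19 and -1.02 there. Krt13 had 7.60, 8.81 and 9.60 CPM in V303M/V303M, against 17.5, 24.4 and 14.2 CPM in wild type, and did not pass the test (log2 change -1.09, adjusted p = 0.336).

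Most other suprabasal keratins were lower too. Of 10 suprabasal keratins tested in Aire-/-, 8 were lower and 1 higher; in Y86C/Y86C 9 of 10 were lower and 1 higher, in C442G/C442G 10 of 11 lower and in C313X/C313X 10 of 12 lower. Of all genes tested, 18.9%, 27.9%, 23.1% and 15.2% were lower in those 4 comparisons, in that order. The shares of all genes given above for each comparison apply to the class counts below too. Krt1, the type II partner of Krt10 in epidermis, averaged 1.08 ± 0.495 CPM in Aire-/- and 11.3 ± 4.68 CPM in wild type (SD, n = 4 and 3; log2 change -3.13, SE 0.46, adjusted p = 3.38e-06). Krt76, known from hard palate and gums, averaged 14.97 ± 1.43 CPM in NOD Aire-/- and 54.5 ± 7.24 CPM in Aire+/- (SD, n = 3 each; log2 change -1.73, SE 0.22, adjusted p = 2.77e-06). Krt9, the keratin of palm and sole skin, averaged 8.12 ± 3.99 CPM in +/C313Y and 47.5 ± 14.04 CPM in wild type (SD, n = 4 and 5; log2 change -2.45, SE 0.27, adjusted p = 1.45e-07). Krt12, the keratin of the corneal epithelium, averaged 2.13 ± 1.10 CPM in C442G/C442G and 15.2 ± 3.63 CPM in wild type (SD, n = 6 and 3; log2 change -2.63, SE 0.31, adjusted p = 2.96e-08).

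Krt10, the most abundant suprabasal keratin, varied more between libraries. It averaged 28.3 ± 8.72 CPM in Y86C/Y86C and 142 ± 21.7 CPM in wild type (SD, n = 3 each; log2 change -2.13, SE 0.26, adjusted p = 9.48e-05), and 36.4 ± 10.5 CPM in C442G/C442G and 182 ± 10.7 CPM in wild type (SD, n = 6 and 3; log2 change -2.13, SE 0.18, adjusted p = 9.72e-09). In Aire-/- it had 44.3, 50.1, 34.9 and 33.4 CPM, against 74.4, 88.7 and 69.04 CPM in wild type, and the groups did not overlap (log2 change -0.82, SE 0.29, adjusted p = 0.0487). That call was lost with no filter on low counts (adjusted p = 0.0676) and without any 1 of the 7 libraries (adjusted p between 0.0537 and 0.14). In C313X/C313X it had 38.1, 97.7 and 52.9 CPM, against 103, 363 and 229.7 CPM in wild type (log2 change -1.71, SE 0.50, adjusted p = 0.0443), and the call was lost without wild-type replicate 6 or 7 or homozygote replicate 1 or 14 (adjusted p between 0.0584 and 0.171), with no filter on low counts (0.0651) and with only the compared groups (0.0549). Krt10 was not called in any NOD comparison. An exon of Gm11940 lies on the other strand at Krt10, and the strand setting of the counting is not given in the sources used here, so reads of the pair cannot be told apart.

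Krt79 went the other way. This type II keratin, known in mouse from the hair canal and sebaceous duct, lies beside Krt4 on chromosome 15: Krt4 spans chr15:101918535-101924735 and Krt79 chr15:101929332-101940324, both on the minus strand (GENCODE vM21, GRCm38). It had 286, 244, 192 and 145 CPM in +/C313Y, against 83.3, 61.1, 51.3, 64.7 and 41.9 CPM in wild type (log2 change 1.95, SE 0.21, adjusted p = 2.04e-07). In -/C313Y it had 310.3, 311 and 325 CPM, against 92.9, 122 and 84.5 CPM in wild type (log2 change 1.79, SE 0.25, adjusted p = 1.05e-05). NOD Aire-/- had 269, 437.8 and 502 CPM, against 178, 126 and 156 CPM in Aire+/- (log2 change 1.55, SE 0.25, adjusted p = 8.88e-05). In all 3, every mutant library was above every control library.

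On C57BL/6 the rise of Krt79 was smaller and did not hold for every allele. It had 68.4, 65.7, 79.6 and 74.1 CPM in Aire-/-, against 37.9, 41.4 and 39.7 CPM in wild type (log2 change 0.96, SE 0.23, adjusted p = 0.0046), with no overlap. Y86C/Y86C had 79.1, 92.9 and 115 CPM, against 74.1, 81.03 and 58.3 CPM in wild type (log2 change 0.65, SE 0.14, adjusted p = 0.000344), and these ranges overlapped. C442G/C442G averaged 78.7 ± 15.7 CPM and its wild type 102 ± 15.7 CPM (SD, n = 6 and 3), which was not called (log2 change -0.16, SE 0.16, adjusted p = 0.439). C313X/C313X averaged 104 ± 12.6 CPM and its wild type 87.2 ± 14.7 CPM (SD, n = 3 each), not called either (log2 change 0.44, SE 0.16, adjusted p = 0.0731).

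Krt78, the next gene beyond Krt79 and a suprabasal keratin, was called in opposite directions on the 2 strains. It was higher in +/C313Y (59.01, 72.9, 76.6 and 76.6 CPM, against 27.9, 32, 59.95, 30.4 and 30.2 CPM in wild type; log2 change 1.07, SE 0.19, adjusted p = 0.000136). It was higher in -/C313Y too (log2 change 0.72, SE 0.23, adjusted p = 0.0219), a call lost without wild-type replicate 3 or mutant replicate 2 or 3 (adjusted p between 0.0751 and 0.0812). In C442G/C442G it averaged 42.8 ± 4.47 CPM and in wild type 104 ± 10.3 CPM (SD, n = 6 and 3; log2 change -1.08, SE 0.15, adjusted p = 3.66e-07). It was lower also in Y86C/Y86C (log2 change -0.71, SE 0.19, adjusted p = 0.00278) and C313X/C313X (log2 change -0.97, SE 0.20, adjusted p = 0.00491), and not called in Aire-/- on either strain. The difference between strains was not tested for it in these lines. The summed level of the suprabasal class, Krt78 and Krt79 included, was 604 ± 118 CPM in -/C313Y and 526 ± 33.2 CPM in wild type (SD, n = 3 each), and on C57BL/6 it was 218 ± 16.2 CPM in Aire-/- and 400.5 ± 16.2 CPM in wild type (SD, n = 4 and 3).

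**Figure D2:**
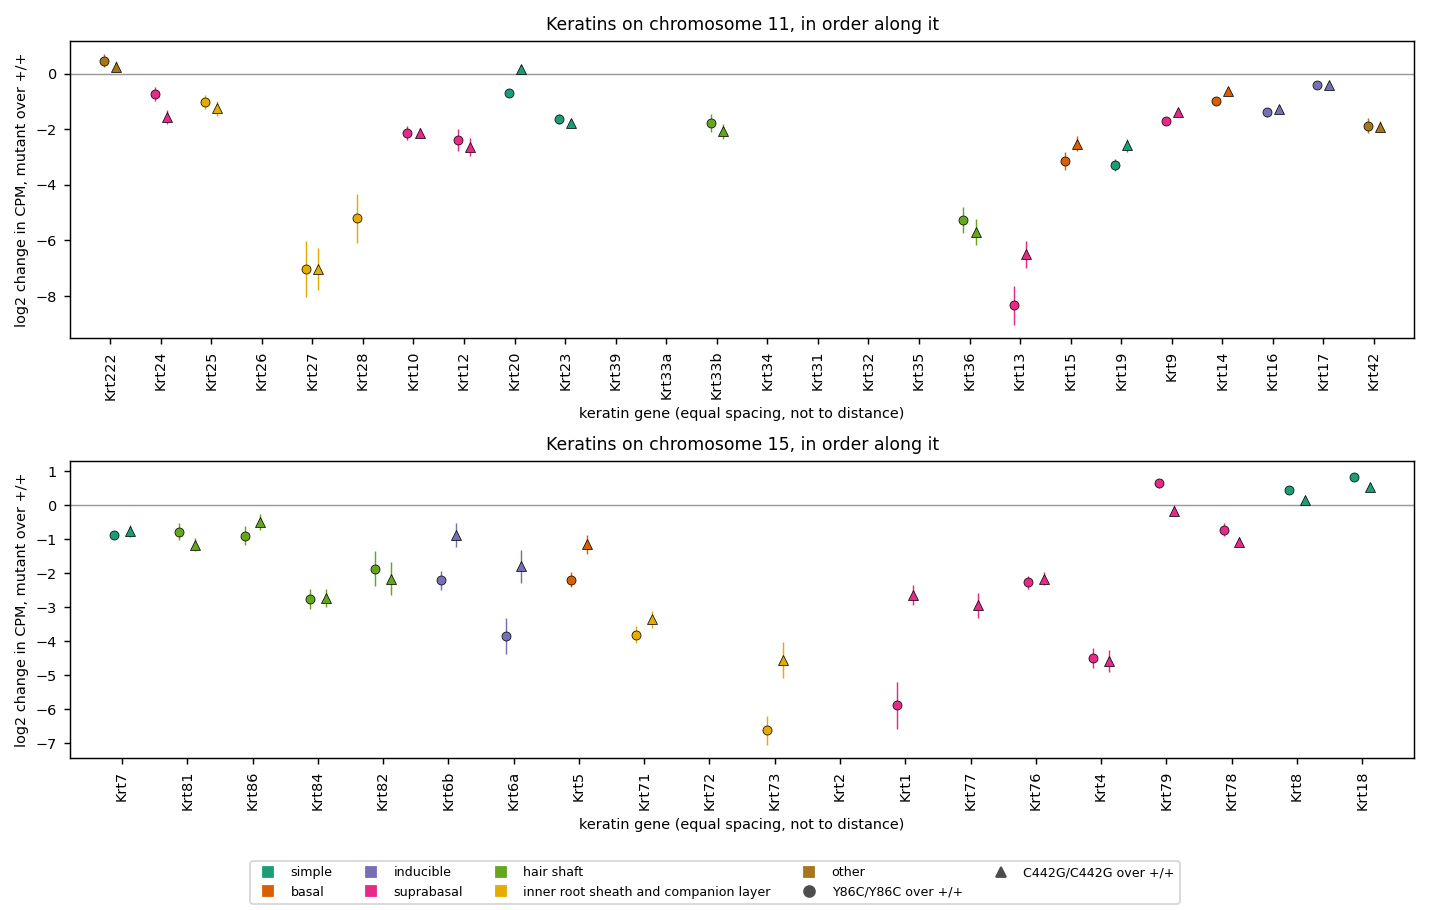
Log2 change with its SE of Y86C/Y86C and C442G/C442G over wild type for keratins in gene order along the type I cluster on chromosome 11 and the type II cluster with Krt18 on chromosome 15. Krt4 (-4.48 in Y86C/Y86C) stands next to Krt79 (0.65), and Krt8 and Krt18 at the end of the chromosome 15 cluster lie above 0.

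Of the hair follicle keratins, those of the inner root sheath had the lowest class median in the 4 C57BL/6 homozygotes, with log2 changes of -3.01 in Aire-/-, -5.21 in Y86C/Y86C, -3.95 in C442G/C442G and -3.46 in C313X/C313X. All 3 tested were lower in Aire-/-, 5 of 5 in Y86C/Y86C, 4 of 4 in C442G/C442G and 4 of 5 in C313X/C313X. On NOD, 3 of 4 were lower in +/C313Y, 4 of 4 in -/C313Y and 2 of 4 in Aire-/-. The summed level of the class was 12.8 ± 3.04 CPM in Aire-/- and 78.5 ± 6.24 CPM in wild type on C57BL/6 (SD, n = 4 and 3). It was 8.19 ± 2.32 CPM in NOD Aire-/- and 56.4 ± 9.21 CPM in Aire+/- (SD, n = 3 each).

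Krt71, the type II keratin of the inner root sheath, made up most of that sum in the controls, with a mean of 41.9 CPM in wild type on C57BL/6 and 33.7 CPM in NOD Aire+/-, but not in Aire-/-, where it averaged 4.94 CPM on C57BL/6 and 1.72 CPM on NOD. It had 10.5, 3.21, 4.11 and 1.94 CPM in Aire-/-, against 41.2, 36.7 and 47.9 CPM in wild type on C57BL/6 (log2 change -3.01, SE 0.33, adjusted p = 2.17e-06). Y86C/Y86C had 4.15, 2.94 and 4.49 CPM, against 78.3, 53.1 and 56.96 CPM in wild type (log2 change -3.80, SE 0.25, adjusted p = 1.7e-11). C442G/C442G had 2.83 (lowest), 3.98 (median) and 5.97 (highest) CPM, against 38.8, 51.7 and 58.6 CPM in wild type (log2 change -3.35, SE 0.24, adjusted p = 1.28e-11). All mutant libraries lay below all wild-type libraries in these 3 lines. On NOD, +/C313Y had 0.358, 3.04, 6.08 and 2.01 CPM, against 41.9, 45.1, 39.97, 30.4 and 40.04 CPM in wild type (log2 change -3.69, SE 0.33, adjusted p = 6.06e-09). NOD Aire-/- had 1.74, 2.77 and 0.651 CPM, against 38.8, 38.6 and 23.6 CPM in Aire+/- (log2 change -3.98, SE 0.45, adjusted p = 5.08e-07), and neither comparison overlapped.

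Krt73, which lies 2 genes from Krt71 on chromosome 15 and is known from the inner root sheath cuticle, was nearly lost in several lines. It had 0.553, 0 and 0 CPM in Y86C/Y86C and 17.7, 20.9 and 20.6 CPM in +/Y86C, against 34.5, 31.6 and 25.6 CPM in wild type; the homozygote differed with log2 change -6.62, SE 0.43, adjusted p = 5.84e-14. The heterozygotes lay between both and overlapped neither, with an adjusted p of 0.116 against wild type. C313X/C313X had 0, 0.319 and 0 CPM, against 21.1, 18.4 and 14.9 CPM in wild type (log2 change -6.79, SE 0.61, adjusted p = 3.02e-05). Of its type I partners, Krt27 had no count in Y86C/Y86C (at least 20.4-fold lower than wild type) or in C442G/C442G (at least 38.7-fold lower).

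Hair shaft keratins, the hard keratins of hair and nail, were lower in 5 of 6 tested in Aire-/-, 7 of 7 in Y86C/Y86C, 6 of 7 in C442G/C442G and 11 of 11 in C313X/C313X. Krt32, Krt33a, Krt34 and Krt35 passed the filter on low counts in the C313X line alone. Krt35 had 3, 13 and 11 counts in wild type there and 0 in each homozygote. Members kept through their control level could hardly be called anything but lower, so 11 of 11 does not compare with the other counts. On NOD, 4 of 6 were lower in +/C313Y, 6 of 6 in -/C313Y and 5 of 6 in Aire-/-. None was called higher anywhere. Krt36, a type I hair keratin that lies next to Krt13 on chromosome 11, had 0.751, 1.20, 1.03 and 1.11 CPM in Aire-/-, against 11.7, 8.87 and 12.9 CPM in wild type (log2 change -3.28, SE 0.47, adjusted p = 2.43e-06). It had no count in C313X/C313X, against 10.1, 23.4 and 11.8 CPM in wild type, at least 50.4-fold lower. In -/C313Y it had 0.840, 0.274 and 0.676 CPM, against 11.8, 17 and 10.8 CPM in wild type (log2 change -4.24, SE 0.66, adjusted p = 2.82e-05). The groups were apart in each.

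Krt85, a type II keratin of the hair matrix and precortex, averaged 0.363 ± 0.333 CPM in Aire-/- and 10.4 ± 2.95 CPM in wild type (SD, n = 4 and 3; log2 change -4.54, SE 0.63, adjusted p = 3.12e-06). Its log2 change was -4.34 in Y86C/Y86C, -3.97 in C442G/C442G, -4.20 in C313X/C313X and -4.60 in -/C313Y. In NOD Aire-/- it had 0.868, 1.98 and 2.60 CPM, against 7.05, 5.30 and 7.04 CPM in Aire+/- (log2 change -1.73, SE 0.55, adjusted p = 0.0344), a call lost under DESeq2 (adjusted p = 0.0511) and without Aire+/- replicate 392 or 402 or Aire-/- replicate 404 or 405 (adjusted p between 0.0828 and 0.172). Krt84, a type II hair keratin of nail and tongue, averaged 6.10 ± 1.54 CPM in C313X/C313X and 53.8 ± 16.9 CPM in wild type (SD, n = 3 each; log2 change -2.96, SE 0.27, adjusted p = 3.67e-05). Krt42, a type I keratin classed with neither skin layers nor hair here, averaged 2.98 ± 0.836 CPM in Aire-/- and 29.7 ± 5.69 CPM in wild type (SD, n = 4 and 3; log2 change -3.18, SE 0.27, adjusted p = 1.33e-10).

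**Figure D3:**
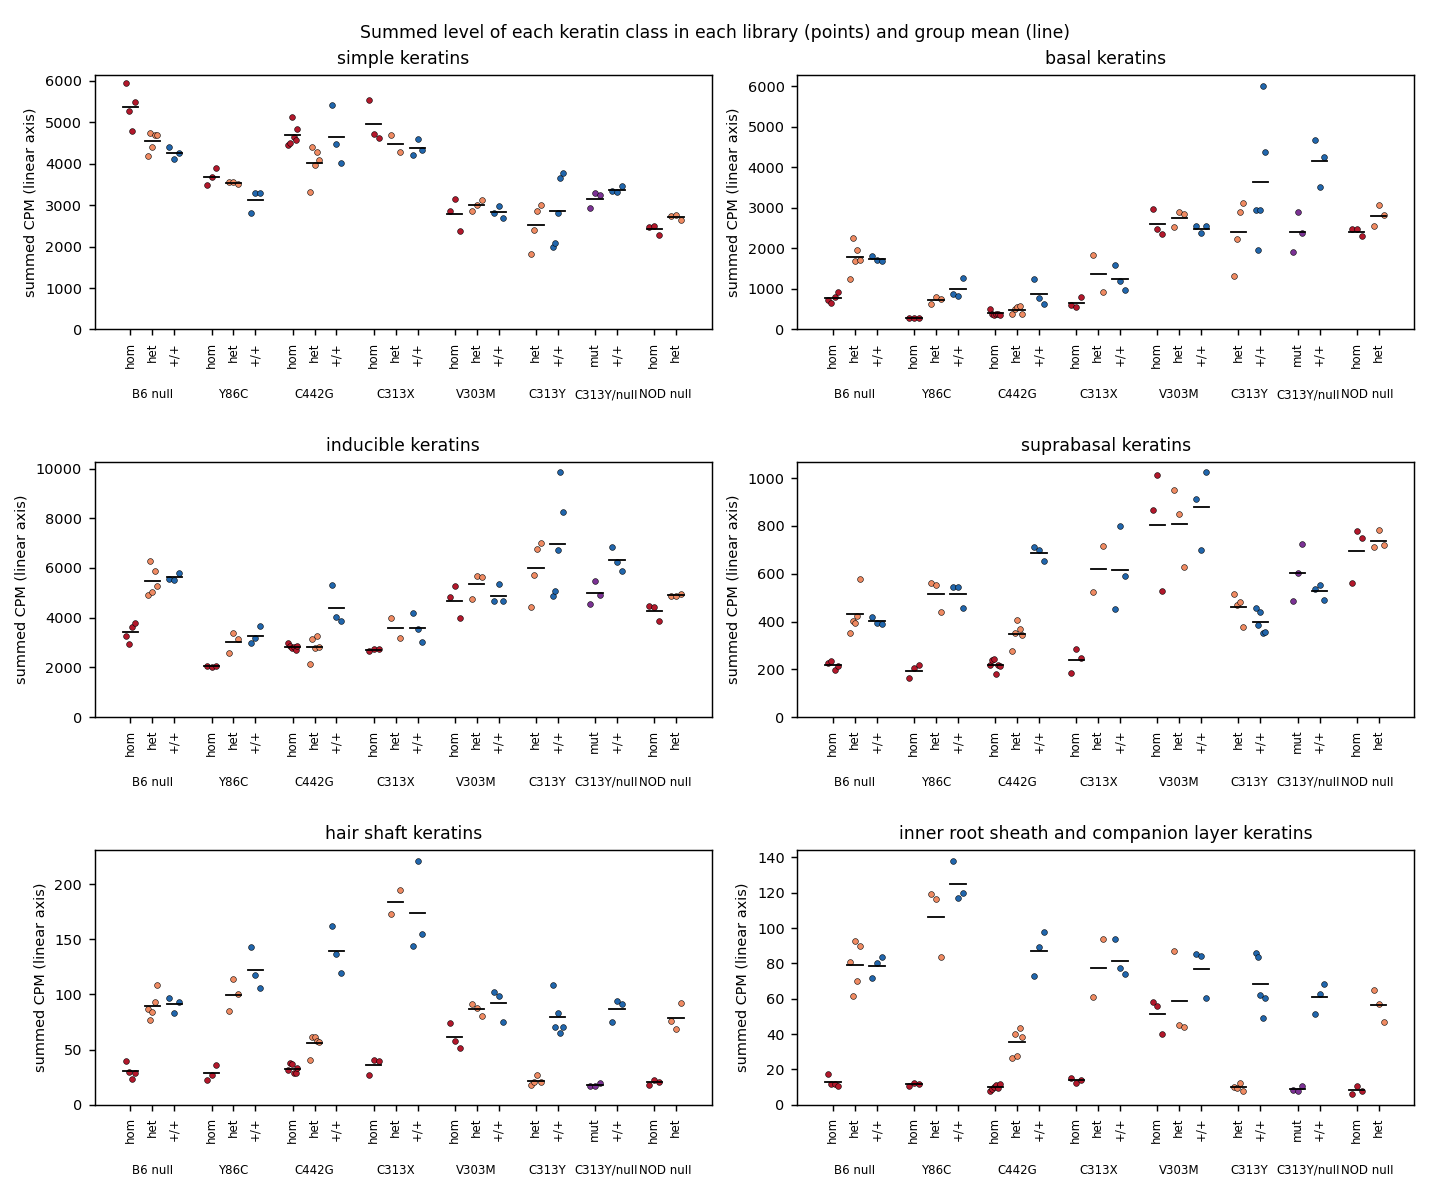
Summed CPM of each keratin class in every library, with mutant groups left of their wild type (or NOD Aire+/-). Inner root sheath sums lie between 10.5 and 17.3 CPM in C57BL/6 Aire-/- and between 71.5 and 83.5 CPM in wild type, while simple keratin sums lie at 4777 to 5940 CPM in Aire-/- and 4109 to 4401 CPM in wild type.

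The simple-epithelial keratins split. Krt18, the type I keratin of simple epithelia, had 3069, 2804, 2294 and 2720 CPM in Aire-/-, against 1757, 1626 and 1715 CPM in wild type (log2 change 0.78, SE 0.09, adjusted p = 1.63e-08). Y86C/Y86C had 2268, 2355 and 2639 CPM, against 1421, 1706 and 1715 CPM in wild type (log2 change 0.83, SE 0.09, adjusted p = 1.54e-09). C442G/C442G had 2384 (lowest), 2442 (median) and 2706 (highest) CPM, against 2126, 1998 and 1716 CPM in wild type (log2 change 0.55, SE 0.12, adjusted p = 0.000236). C313X/C313X had 3860, 3132 and 2899 CPM, against 2439, 2593 and 2585 CPM in wild type (log2 change 0.58, SE 0.15, adjusted p = 0.0185), a call lost without wild-type replicate 2 (adjusted p = 0.0532) or homozygote replicate 1 (0.0913). Every homozygous library was above every wild-type library of its line. Krt18 was also the keratin called higher in +/Y86C, with 1977, 2016 and 1958 CPM against the wild-type values above (log2 change 0.35, SE 0.09, adjusted p = 0.0173), and that call was lost without wild-type replicate 2 (adjusted p = 0.167) or heterozygote replicate 3 (0.0615).

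Its partner Krt8 had 2403, 2058, 1978 and 2256 CPM in Aire-/-, against 1686, 1557 and 1637 CPM in wild type (log2 change 0.52, SE 0.08, adjusted p = 5.55e-06), and the groups did not overlap. In Y86C/Y86C it averaged 1047 ± 44.5 CPM and in wild type 916 ± 79.1 CPM (SD, n = 3 each; log2 change 0.44, SE 0.08, adjusted p = 4.7e-05). In C442G/C442G it averaged 1856 ± 139.5 CPM and in wild type 1912 ± 322 CPM (SD, n = 6 and 3), which was not called; the scaled log2 change was 0.15 and so has the other sign from the plain means. On NOD neither Krt8 nor Krt18 was called: Krt18 averaged 1232 ± 39.5 CPM in Aire-/- and 1283 ± 92.3 CPM in Aire+/- (SD, n = 3 each; log2 change 0.09, SE 0.18, adjusted p = 0.84). In -/C313Y it averaged 1509 ± 133 CPM and in wild type 1261 ± 114 CPM (SD, n = 3 each; log2 change 0.38, SE 0.18, adjusted p = 0.145), and it was called with only the compared groups in the fit (adjusted p = 0.0393) and with all 8 NOD wild types of the table (0.0056). The cortical marker genes Tbata and Ccl25 were also higher in all 4 C57BL/6 homozygotes, with log2 changes of 1.21 and 1.002 in Aire-/-, 1.19 and 1.23 in Y86C/Y86C, 0.89 and 1.03 in C442G/C442G and 0.76 and 0.86 in C313X/C313X, and in +/Y86C, where Krt18 was called too, 2 of 3 tested of the cortical list were higher. Psmb11, which defines cortical cells, averaged 3.35 CPM in Aire-/- and 2.41 CPM in wild type. Its mean was below that of wild type in Y86C/Y86C (0.72 against 1.72 CPM), C442G/C442G (1.45 against 3.66 CPM) and C313X/C313X (1.26 against 4.13 CPM). Psmb11, Prss16 and Ly75 were called in none of the 4 homozygotes, though some were too low to test. The summed level of the list, most of it Tbata and Ccl25, was 3882 to 4922 CPM in Aire-/- and 2073 to 2098 CPM in wild type. It was 6404 to 7429 CPM in Y86C/Y86C and 3272 to 3713 CPM in wild type, 4737 to 5900 CPM in C442G/C442G and 2831 to 3737 CPM in wild type, and 3566 to 4914 CPM in C313X/C313X and 2648 to 2942 CPM in wild type. Of the myeloid list, 2 of 5 were higher and 1 lower in Aire-/- (807 to 953 CPM in sum, against 628 to 761 CPM in wild type), and 0 higher and 3 lower in C313X/C313X, Itgam (-2.35) and Csf1r (-1.69) among them. Of the fibroblast and endothelial list, 1 of 4 was higher and 2 lower in Y86C/Y86C, Dcn (2.36) and Col1a1 (-5.48) among them, with a sum of 413 to 494 CPM, against 200 to 240 CPM in wild type. In Aire-/-, Dcn (1.39), Col3a1 (1.18) and Pecam1 (1.07) were higher and Col1a1 (-2.08) lower. Of all genes, 36.6% were called in Aire-/-, 49.6% in Y86C/Y86C, 23.1% in C313X/C313X and 3.37% in +/Y86C. The part of the listed marker genes in the keratin results was not tested.

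Krt7 was lower in all 4 C57BL/6 homozygotes, and Krt19 and Krt23 in 3 of 4 each. Krt19, a small type I keratin of ducts and glands, had 34.9, 42.9, 25.2 and 32.9 CPM in Aire-/-, against 116, 157 and 123 CPM in wild type (log2 change -1.83, SE 0.20, adjusted p = 3.19e-06). Y86C/Y86C had 6.36, 16.2 and 17.96 CPM, against 139, 139 and 170.0 CPM in wild type (log2 change -3.29, SE 0.22, adjusted p = 1.15e-08), and C442G/C442G was lower too (log2 change -2.57). In C313X/C313X the libraries had 10.3, 19.2 and 74.05 CPM, against 81.8, 149 and 88.3 CPM in wild type, which was not called (log2 change -1.48, SE 0.62, adjusted p = 0.13); without homozygote replicate 14, the highest of the 3, it was (log2 change -2.65, adjusted p = 0.0011). Krt7, a type II keratin of glandular epithelia, averaged 367 ± 52.6 CPM in Aire-/- and 672 ± 27.7 CPM in wild type (SD, n = 4 and 3; log2 change -0.77, SE 0.13, adjusted p = 0.000152). Krt23 averaged 16.9 ± 1.56 CPM in C442G/C442G and 64.7 ± 7.40 CPM in wild type (SD, n = 6 and 3; log2 change -1.75, SE 0.14, adjusted p = 3.28e-12). An exon of Gm671 overlaps Krt7, and one of Gm36026 Krt8, on the other strand.

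Krt20, a type I keratin of gut epithelium, depended on the line. In +/C313Y it had 6.08, 7.60, 6.48 and 5.62 CPM, against 44.95, 57.7, 36.2, 29.8 and 43.1 CPM in wild type (log2 change -2.60, SE 0.23, adjusted p = 4.63e-09). In -/C313Y it had 13.4, 8.22 and 5.41 CPM, against 38.5, 51.6 and 50.3 CPM in wild type (log2 change -2.22, SE 0.25, adjusted p = 2.51e-07). NOD Aire-/- had 18.7, 17.8 and 11.7 CPM, against 38.5, 35.6 and 41.2 CPM in Aire+/- (log2 change -1.08, SE 0.25, adjusted p = 0.00314). The groups did not overlap in these 3. On C57BL/6 it averaged 48.1 ± 7.22 CPM in Aire-/- and 87.1 ± 10.8 CPM in wild type (SD, n = 4 and 3; log2 change -0.77, SE 0.14, adjusted p = 4.03e-05). C442G/C442G had 62.8 (lowest), 79.7 (median) and 85.3 (highest) CPM and +/C442G 114, 107, 74.4, 119 and 115 CPM, against 61.7, 94.6 and 71.7 CPM in wild type. The homozygote was not called (log2 change 0.18, SE 0.14, adjusted p = 0.319), and the heterozygote was higher (log2 change 0.59, SE 0.14, adjusted p = 0.00245), although 1 heterozygous library lay within the wild-type range.

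Basal keratins were lower on C57BL/6 and not called on NOD. All 3 were lower in Aire-/-, Y86C/Y86C and C442G/C442G, 1 of 3 in C313X/C313X, and 0 of 3 in each NOD comparison. Krt5 had 438.5, 365, 487 and 525 CPM in Aire-/-, against 1132, 1065 and 1030 CPM in wild type (log2 change -1.14, SE 0.20, adjusted p = 0.000976). Y86C/Y86C had 88.8, 108 and 83.8 CPM, against 452, 395 and 685 CPM in wild type (log2 change -2.19, SE 0.22, adjusted p = 4.84e-05). Neither pair of groups overlapped. Its partner Krt14 averaged 188 ± 7.29 CPM in Y86C/Y86C and 441.3 ± 98.6 CPM in wild type (SD, n = 3 each; log2 change -0.98, SE 0.12, adjusted p = 4.13e-07). Part of the 3' end of Krt14 also occurs in another keratin's transcript, as given below with Krt16 and Krt17, so its reads may be shared. Krt15, a type I basal keratin also known from hair follicle stem cells, had 11.3, 13.6, 8.73 and 6.91 CPM in Aire-/-, against 45.95, 42 and 58.7 CPM in wild type (log2 change -2.19, SE 0.33, adjusted p = 0.000193). Of the markers of immature mTEC, Itgb4, an integrin chain of hemidesmosomes, averaged 305.4 ± 35.88 CPM in C57BL/6 Aire-/- and 444.9 ± 31.71 CPM in wild type (SD, n = 4 and 3; log2 change -0.44, adjusted p = 0.00443). Pdpn, podoplanin, averaged 12.59 ± 2.32 CPM in Aire-/- and 26.5 ± 1.59 CPM in wild type (log2 change -0.97, adjusted p = 0.00314), and Trp63, the transcription factor p63 of basal epithelia, 32.67 ± 3.50 CPM in Aire-/- and 36.7 ± 3.02 CPM in wild type, which was not called (log2 change -0.07, adjusted p = 0.733). Itgb4 was not called in Y86C/Y86C (log2 change -0.13), C442G/C442G (-0.09) or C313X/C313X (-0.28), and neither was Trp63. Pdpn was lower in Y86C/Y86C (log2 change -1.13) and C442G/C442G (-0.96) and not called in C313X/C313X (-0.38). Ccl21a, a defining marker of immature mTEC, is not among the genes listed in the deposited counts, so no level can be given for it. The part of such cells in the result was not tested.

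On NOD the basal keratins rested on which libraries were compared. In +/C313Y, Krt5 had 634, 992, 1519 and 1566 CPM, against 1780, 937, 1468, 3343 and 2292 CPM in wild type, and the ranges overlapped (log2 change -0.64, SE 0.29, adjusted p = 0.149). Without the 2 wild-type libraries titled C313T, Krt5 (log2 change -0.93, adjusted p = 0.0203), Krt14 (-0.71, 0.0201), Krt7 (-0.95, 0.00831) and Krt17 (-0.39, 0.0301) were called lower. In -/C313Y, Krt5 averaged 1302 ± 304 CPM and in wild type 2519 ± 373 CPM (SD, n = 3 each), with no overlap between libraries, and was not called in the fit over the whole table (log2 change -0.83, SE 0.35, adjusted p = 0.0985). With only these 2 groups in the fit it was (adjusted p = 0.00113), as were Krt14 (0.0339) and Krt7 (0.000841). In NOD Aire-/-, Krt5 had 1343, 1343 and 1334 CPM, against 1318, 1521 and 1518 CPM in Aire+/- (log2 change 0.04, SE 0.35, adjusted p = 0.976), and Krt15 had 54.7, 48.6 and 33.8 CPM, against 52.9, 44.7 and 44.7 CPM in Aire+/- (adjusted p = 0.862).

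Among the inducible keratins, Krt17 had 3236, 2904, 3574 and 3741 CPM in Aire-/-, against 5458, 5427 and 5720 CPM in wild type (log2 change -0.62, SE 0.09, adjusted p = 2.49e-06), with no overlap. It was lower also in Y86C/Y86C (log2 change -0.41, SE 0.09, adjusted p = 0.000447) and in C442G/C442G (log2 change -0.42), where the call was lost without wild-type replicate 86 (adjusted p = 0.205). Krt16, the type I partner of Krt6a and Krt6b after wounding, averaged 36.2 ± 4.58 CPM in Aire-/- and 84.97 ± 5.81 CPM in wild type (SD, n = 4 and 3; log2 change -1.12, SE 0.19, adjusted p = 0.000109). Krt6a averaged 0.615 ± 0.356 CPM in Y86C/Y86C and 10.3 ± 4.06 CPM in wild type (SD, n = 3 each; log2 change -3.85, SE 0.52, adjusted p = 2.5e-07). None of the 4 was called in the NOD comparisons. Krt16, Krt17 and the basal Krt14 share transcript sequence with other keratins. Of the 31-base words in the last 500 bases of transcript, 32.6% in Krt16 and 17.2% in each of Krt14 and Krt17 occur in another keratin's transcript too. Reads of these genes may therefore be shared, and their values are uncertain to that extent.

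**Figure D4:**
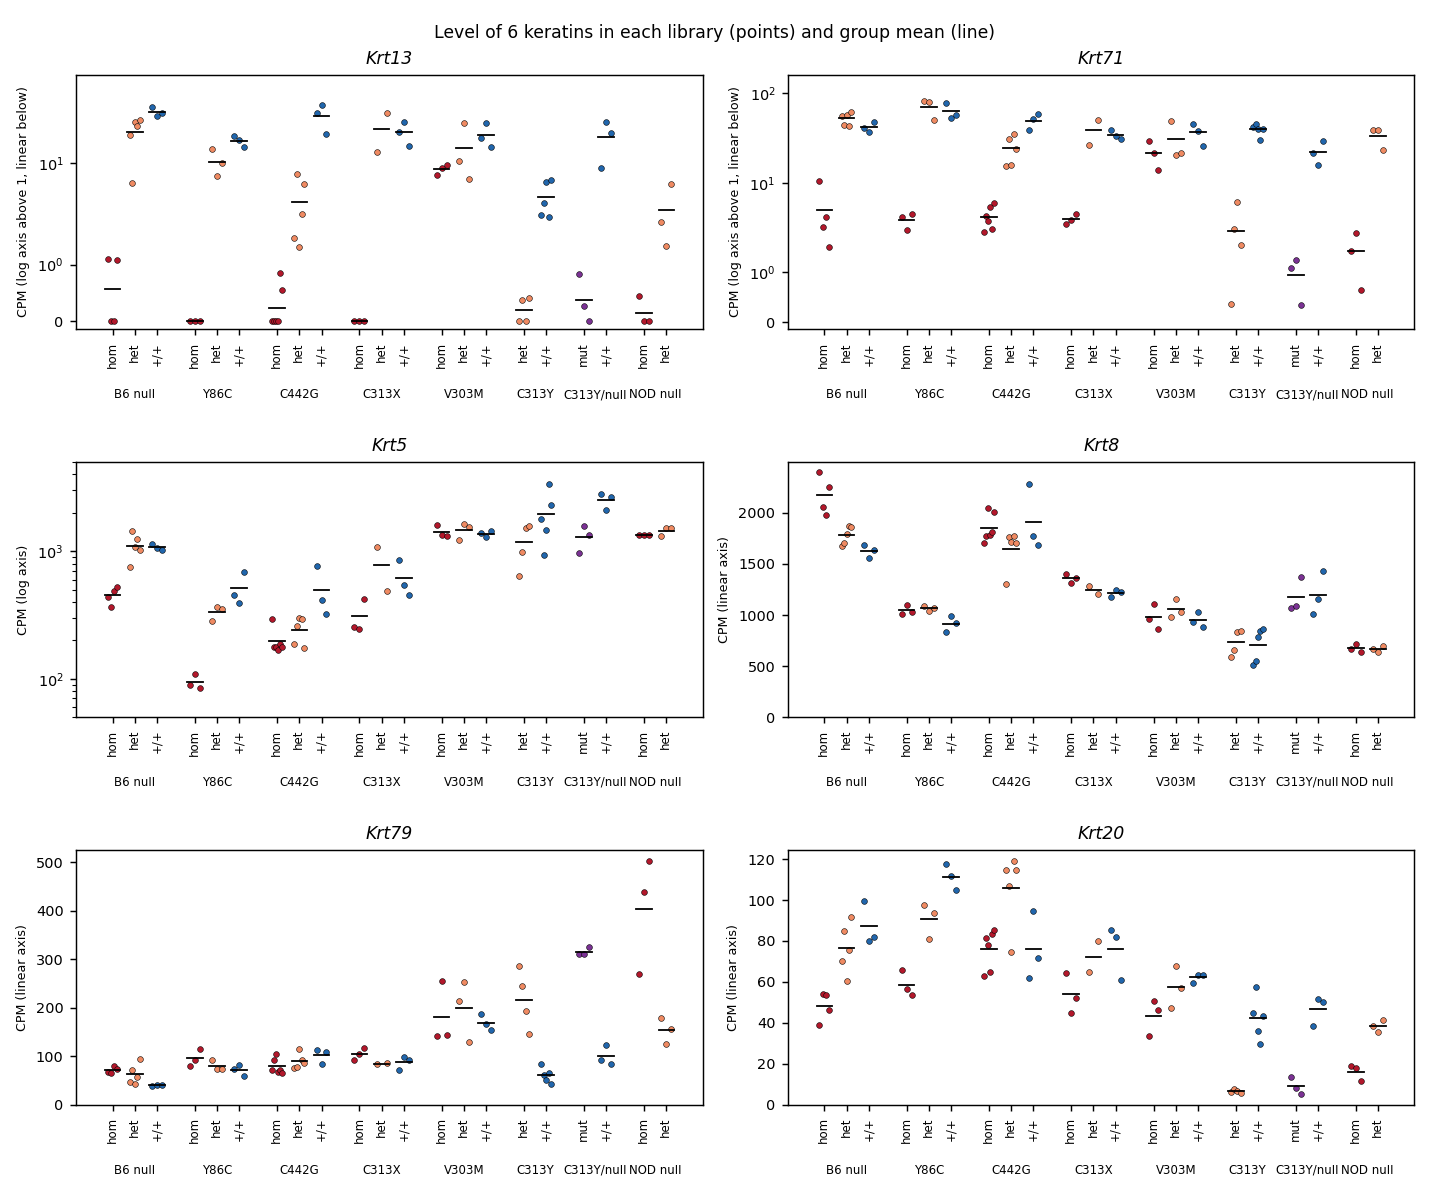
CPM per library of Krt13, Krt71, Krt5, Krt8, Krt79 and Krt20, each mutant group left of its wild type (or NOD Aire+/-). In the C57BL/6 homozygotes, +/C313Y, -/C313Y and NOD Aire-/-, Krt13 lies near 0 and Krt71 at 10.5 CPM or below, Krt79 reaches 269 to 502 CPM in NOD Aire-/- against 126 to 178 CPM in Aire+/-, and Krt20 is lowest in +/C313Y at 5.62 to 7.60 CPM.

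+/C442G mice carry 1 normal Aire allele, yet 28 keratins were lower than wild type in them. Both C442G groups were compared with the same 3 wild-type libraries. Krt13 had 1.83, 7.78, 1.49, 3.10 and 6.16 CPM in +/C442G, against 30.8, 36.9 and 19.4 CPM in wild type (log2 change -2.73, SE 0.35, adjusted p = 2.97e-06). Krt4 had 3.21, 6.48, 7.81, 6.21 and 7.40 CPM, against 32.5, 35.5 and 26.8 CPM in wild type (log2 change -2.19, SE 0.27, adjusted p = 3.15e-07). Krt71 had 15.6, 31.1, 15.99, 35.1 and 24.04 CPM, against 38.8, 51.7 and 58.6 CPM in wild type (log2 change -0.88, SE 0.21, adjusted p = 0.00289). All heterozygous libraries lay below all wild-type libraries for these 3 keratins. Set against each other in an added comparison, C442G/C442G was lower than +/C442G for 20 of 37 keratins and higher for 1, where 20.5% of all genes were called, 6.4% higher and 14.1% lower.

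The abundant keratins of +/C442G rested on 1 wild-type library. Wild-type replicate 86 had 769 CPM of Krt5, 634 CPM of Krt7, 427.7 CPM of Krt14 and 5128 CPM of Krt17, the highest of the 3 for each. Without it the calls of Krt5 (log2 change -0.44, adjusted p = 0.248), Krt7 (-0.19, 0.4), Krt14 (-0.26, 0.202) and Krt17 (-0.31, 0.12) were lost. With it, Krt5 had a log2 change of -0.91 (adjusted p = 0.0417) and Krt7 of -0.57 (adjusted p = 0.0283). Without it 24 of the 29 calls held, Krt13, Krt4 and Krt71 among them.

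Whether 1 C442G allele and 1 null allele differ was tested as the difference between the +/C442G and Aire+/- changes, in a fit over the 4 C57BL/6 tables added after the results were seen. Of 42 keratins, 13 were lower and 1 higher, against 5.77% of all genes, 2.24% higher and 3.53% lower. Among the 13 were Krt36 (difference of log2 changes -2.71, SE 0.49, adjusted p = 0.000473), Krt4 (-1.65, SE 0.35, adjusted p = 0.00204) and Krt85 (-2.23, SE 0.55, adjusted p = 0.00949). Krt28 and Krt77, also among the 13, were too low to test in the fit of the null line alone. Krt20 was the 1 higher (0.77, SE 0.21, adjusted p = 0.0184). The same test for +/Y86C called 0 of 42 keratins and 0% of all genes, and 2 keratins had an unadjusted p below 0.05 by edgeR's test. The lines were in separate tables, so line and table cannot be told apart.

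**Figure D5:**
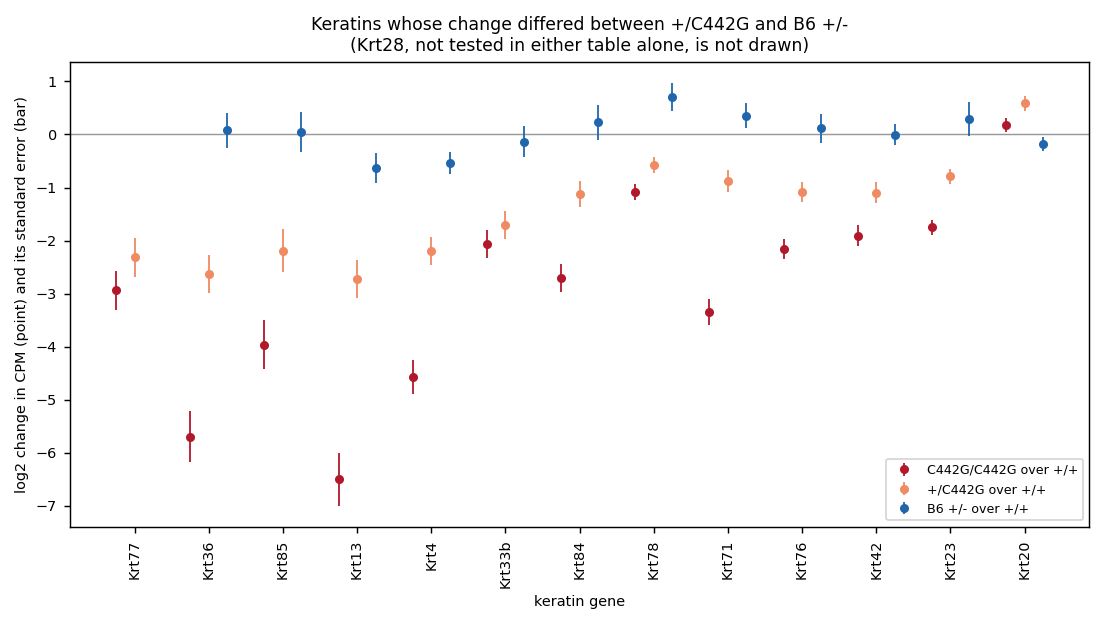
Log2 change with its SE over wild type of 13 keratins in C442G/C442G, +/C442G and C57BL/6 Aire+/-. For Krt4 the values are -4.58 in C442G/C442G and -2.19 in +/C442G, and the Aire+/- points lie above those of +/C442G but for Krt20, where the point lies below; Krt77 was not tested in Aire+/-.

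The homozygous alleles were set against the null in the same way. The Y86C/Y86C and Aire-/- changes differed for 0 of 42 keratins by edgeR's test (2% of all genes, 1.11% higher and 0.887% lower). At an unadjusted p below 0.05 there were 8. For C442G/C442G, 4 of 42 differed (2.94% of all genes, 1.57% higher and 1.37% lower): Krt20 (0.9985, SE 0.21, adjusted p = 0.00458) and Krt42 (1.32, adjusted p = 0.0472) had higher values than the null, and Krt78 (-1.28, SE 0.29, adjusted p = 0.0103) and Krt79 (-1.08, SE 0.27, adjusted p = 0.0218) lower values than the null. The Krt42 difference was lost with relative log expression scaling (adjusted p = 0.0621). For C313X/C313X, 2 of 42 differed (2.67% of all genes, 1.88% higher and 0.784% lower): Krt36 (adjusted p = 0.0374), whose fitted difference rests on a group with no count and is no bound, and Krt78 (-1.15, SE 0.33, adjusted p = 0.0489), which was lost with no filter on low counts (adjusted p = 0.0503).

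The NOD and C57BL/6 null alleles were compared through the Aire-/- against Aire+/- change on each strain, a test added after the results were seen. Of 39 keratins, 3 differed, all higher on NOD, against 1.04% of all genes, 0.571% higher and 0.465% lower. These were Krt15 (difference of log2 changes 2.56), Krt42 (2.08) and Krt19 (1.61). Krt15 was at 54.7, 48.6 and 33.8 CPM in NOD Aire-/-, against 52.9, 44.7 and 44.7 CPM in NOD Aire+/-, and at 11.3, 13.6, 8.73 and 6.91 CPM in C57BL/6 Aire-/-, against 69.2, 24.6, 58.4, 66.4 and 68.8 CPM in C57BL/6 Aire+/-. The 2 strains share no control libraries and were in separate tables, so strain and table cannot be told apart. The lower counts of keratins on NOD were not tested otherwise as a difference between strains.

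Genes that work with keratins were counted in the same fits, where 36.6% of all genes were called in Aire-/- and 49.6% in Y86C/Y86C. Of the other intermediate filament genes, 8 of 13 tested were lower and 0 higher in C57BL/6 Aire-/-, with the neuronal Nefl (log2 change -5.00), Nefm (-2.52), Nefh (-2.29) and Nes (-1.87) in front. In Y86C/Y86C, 9 of 14 were lower, and Vim (0.31) and Des (0.92), the vimentin and desmin of mesenchyme and muscle, were higher. Of the desmosome genes, which anchor keratin filaments, 2 of 9 were higher and 1 lower in Aire-/-: Pkp2 (0.91), Dsg2 (0.29) and Perp (-0.68). Of the plakin and hemidesmosome genes 1 of 11 was higher and 3 lower, Lamb3, a laminin chain, among them (log2 change -1.45). Of the epidermal regulators 2 of 16 were higher and 4 lower, among them Zfp750 (0.85) and Klf5 (-0.97). Of the hair shaft regulators Msx1 (-1.30) and Dlx3 (-0.90) were lower and Foxq1 (0.85) higher, of 4 tested. The called shares of the desmosome, plakin and hemidesmosome, and epidermal regulator lists lay near that of all genes.

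The keratin-associated proteins, which cross-link hard keratins in the hair shaft, were too low to test in Aire-/-, with a summed level of 0 to 2.81 CPM there and 8.24 to 21.3 CPM in wild type. In Y86C/Y86C all 3 tested were lower, and their sum was 0.998 to 2.35 CPM, against 24.7 to 33.5 CPM in wild type. In C313X/C313X all 4 tested were lower.

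Markers of keratinocyte-like mTEC other than keratins (Ivl, Sbsn, Cdsn, Spink5, Dsg1a, Calm4, Lor, Pof1b) were called in some lines and not in others. Flg was not among the listed genes. In C57BL/6 Aire-/-, 1 of 8 was lower, where 36.6% of all genes were called, and the sum of the list overlapped, 360.5 to 479 CPM against 358 to 462 CPM in wild type. In Y86C/Y86C, 7 of 8 were lower and 1 higher (262 to 339 CPM against 449 to 509 CPM in wild type), where 49.6% of all genes were called, and in C442G/C442G 6 were lower and 1 higher, where 42.6% were called. In +/C313Y 3 were higher and 0 lower, with 17.4% of all genes called, and in -/C313Y 2 were higher and 0 lower, with 22.7% called. Of tuft cell markers, 1 of 6 was lower and 1 higher in C57BL/6 Aire-/-, and 6 of 6 lower in Y86C/Y86C, where the sum was 29.1 to 88.8 CPM against 173 to 203 CPM in wild type. The part of these cells in the keratin results was not tested.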

How the data were processed

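The deposited tables hold whole-number counts of reads per gene, made by the authors and listed beside other columns. The tools named in the submitters' processing notes are HTSeq, STAR 2.4.2a, cutadapt, bcl2fastq and DESeq2, and the build is mm10. Whether molecular identifiers were collapsed, and the strand setting, are not given in the sources used here. Each table lists genes whose highest count reaches at least 6. A further 148 per-sample columns (normalized or transformed values and columns of no sample used) were not used.

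From the counts, CPM was computed on the total of all listed genes. Each table was fitted once with all its groups in edgeR 4.0.16 (R 4.3.3): filterByExpr, TMM scaling and robust quasi-likelihood F tests, with p-values adjusted by Benjamini-Hochberg over all tested genes. Differences between lines came from 1 joint fit of the 4 C57BL/6 tables (14547 genes tested). The scripts were checked on simulated counts. Alternatives were relative log expression scaling, no filter on low counts, DESeq2 1.42.0, only the compared groups in the fit, other sets of wild types, and leaving out each library. Totals of 1016619 to 7225403 counts set the precision, and bounds for groups without a count use 3 counts over the group.

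Gene positions are from GENCODE vM21 and promoter windows from RefSeq (GRCm38.p6), the 250 bases before each start. Keratins named with values were, per comparison, up to 8 called higher and 8 called lower with the largest changes, if 1 of the groups averaged 5 CPM or more, and the 8 most abundant in wild type. For differences between lines and for partner lists the limit was 4 each way. Members named outside that rule were chosen after their values were seen. The members, their classes and all lists were chosen with earlier results of these data known. Replicate numbers shared by -/C313Y and its wild types did not pair the libraries (correlations of same-numbered deviations 0.0637, -0.0377 and 0.158). One marker of immature mTEC is not reported here.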

Additional observations from a re-analysis of the deposited data

Results flagged for a closer look

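Of 94 sets of 1 keratin and 1 group of 4 to 6 libraries, 6 held a library far from the rest; chance gives about 1 such set in 20. In C442G/C442G, replicate 93 had 1.36 CPM of Krt73, with the next library at 0.314 CPM, and replicate 80 had 294 CPM of Krt5, with the next at 188 CPM. In +/C442G, replicate 85 had 74.4 CPM of Krt20, below the next at 107 CPM, and replicate 81 had 1299 CPM of Krt8, below the next at 1706 CPM. In the wild types of +/C313Y, replicate 52 had 60 CPM of Krt78, above the next at 32.0 CPM. In +/C313Y, replicate 75 had 1.20 CPM of Krt4, below the next at 3.42 CPM.

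Some changes differed between lines by a test of the difference itself. Between C442G/C442G and Aire-/- on C57BL/6, log2 changes differed for Krt20 (0.9985), Krt42 (1.32), Krt78 (-1.28) and Krt79 (-1.08). Between C313X/C313X and Aire-/- they differed for Krt36 (-5.01, a fitted value that rests on a group with no count) and Krt78 (-1.15). Between +/C442G and Aire+/- they differed for Krt20 (0.77), Krt28 (-3.55), Krt77 (-2.90), Krt36 (-2.71) and Krt85 (-2.23). Krt28 was too low to test in the fit of either line alone, and Krt77 in that of the null line, where wild type had 11, 7 and 1 counts. Their values rest on few counts. Between NOD and C57BL/6, the Aire-/- against Aire+/- change differed for Krt15 (2.56), Krt42 (2.08) and Krt19 (1.61). The last 2 sets of tests were added after the results were seen, and each line or strain has a table of its own.

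The library titled wild type but labelled Aire-/- by genotype, which entered no comparison, lay above the highest wild-type library of its table in the summed level of 5 keratin classes. It had 4595 CPM of simple keratins (highest wild type 4401 CPM), 510.8 CPM of suprabasal keratins (419 CPM), 129 CPM of hair shaft keratins (97.0 CPM), 99.9 CPM of inner root sheath keratins (83.5 CPM) and 49.7 CPM of the other keratins (41.7 CPM). Its 1348 CPM of basal keratins lay below the lowest wild type (1678 CPM), as did its 5288 CPM of inducible keratins (5512 CPM). In every class the library lay outside the range of the Aire-/- libraries of that table. Their range was 198 to 235 CPM for suprabasal keratins and 23.6 to 39.8 CPM for hair shaft keratins. For inner root sheath keratins it was 10.5 to 17.3 CPM and for simple keratins 4777 to 5940 CPM.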

How the results depend on the processing

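No named keratin that was called changed its sign under any alternative run. Over 183 pairs of a named keratin and a comparison, 2012 alternatives were computed: 1940 kept the direction and side of the threshold, 48 lost a call and 24 gained one. The count of called keratins moved by more than 1.5 times in few settings. With only the compared groups, +/Y86C had 2 called keratins (1 as reported) and V303M/V303M 0 (1 as reported), and DESeq2 called 2 in V303M/V303M. With no filter on low counts, the difference between C313X/C313X and Aire-/- held for 1 keratin. Leaving out 1 library at a time gave 25 to 27 called keratins in C57BL/6 Aire-/-, 0 to 1 in Aire+/-, 34 to 38 in Y86C/Y86C, 0 to 2 in +/Y86C, 31 to 33 in C442G/C442G, 26 to 30 in +/C442G and 22 to 31 in C313X/C313X. It gave 0 to 0 in +/C313X and +/V303M, 0 to 2 in V303M/V303M, 17 to 18 in +/C313Y, 19 to 24 in -/C313Y and 14 to 17 in NOD Aire-/-. A fit of only the -/C313Y and wild-type libraries called 26 keratins, against 22 as reported, and gained Krt5, Krt7, Krt14, Krt15, Krt16 and Krt18. The same fit with the replicate number as a block also called 26 and gained the same 6; the numbers did not pair the libraries. Without the filter, or under DESeq2, hair keratins of very low count were called too in some lines, such as Krt32 and Krt35 in C57BL/6 Aire-/-. Depth limits these: 1 CPM is 1 to 7 counts at these totals.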
